A study of Mus musculus with 105 samples.

Results

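TXΔXicB6 and TXΔXicCast are female mouse embryonic stem cell (mESC) lines that carry a deletion of the X-inactivation center (Xic) on opposite X chromosomes. They were compared here at day 3 of differentiation, over every gene of the deposited count table except the spike-in rows. The table held 52016 genes besides 92 spike-in rows, which were at 0, and 19885 genes passed the filter on low counts and were tested in 3 libraries of each line. These 6 libraries are part of 105 samples of the series. All groups derive from clone A3 of TX1072, a line from a cross of the strains C57BL/6 (B6) and CAST/EiJ (Cast), so that sequence variants assign reads to an allele. TX1072 also has a doxycycline-responsive promoter before the B6 copy of Xist, and rtTA, its activator, in the Rosa26 locus. In TXΔXicB6 the deletion removed that promoter together with the B6 copy of Xist, whereas in TXΔXicCast it lies on the chromosome that keeps Xist, so the lines differ in the promoter of their remaining Xist copy as well.

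In TXΔXicB6 the Xic was removed from the B6 X chromosome, and the Cast X chromosome became the inactive X (Xi). In TXΔXicCast it was removed from the Cast X chromosome, and the B6 X chromosome became the Xi. Each line is 1 clone, so that the deletion and any other difference between the clones cannot be told apart. Cells were kept in serum with Lif and 2i and differentiated by withdrawal of both on fibronectin in medium with serum. According to the study's reporting summary each biological replicate was differentiated on a day of its own, so replicates with the same number may share a differentiation. The lines were also sequenced at days 0, 1, 2 and 4 and TX1072 itself at days 0 to 4, each in 3 libraries, and these served as reference for single values.

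The Xic holds Xist, a long non-coding RNA that silences the chromosome carrying it, together with its antisense gene Tsix and the regulators Jpx and Ftx. A chromosome without Xist cannot be silenced, so each line was built to silence one predetermined X chromosome. When mESCs leave 2i and Lif, they lose naive pluripotency genes, pass through a formative state and then begin to express lineage genes, and Xist is upregulated over the same days.

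The deletion was made with Cas9 and pairs of guides named after Nap1l2 and Rnf12 (the former name of Rlim), genes at the borders of the removed stretch. The 4 guides are shown because they were used to make the deletions, with the last 10 bases, next to the PAM, in capitals. Their genomic positions were not searched here. According to the study's methods, transfections with different guide pairs were pooled before clones were picked, so the pair behind each line is not given here. The study lists slightly different ends of the deletion for the lines.
Nap1l2_guide1: gtgcacactggCAGAATCGCT
Nap1l2_guide2: gaatggttaatGTGCTTCGTC
Rnf12_guide1: gctgaataggGTTGCTCTAC
Rnf12_guide2: ggactaagttTGGCGGTTGA

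The 3 libraries of TXΔXicB6 held 37283834, 49962859 and 20246434 counts, and those of TXΔXicCast 35882000, 16906263 and 32908885. In the same order 32.9, 33.9 and 30.8% and 30.6, 31.2 and 22.9% of counts were assigned to an allele, so replicate 3 of TXΔXicCast had the lowest share. All 6 libraries expressed markers of mESCs. Pou5f1, the gene of the pluripotency factor Oct4, stood at 867, 790 and 766 counts per 1e6 (CPM, TMM-normalized in every value of a gene below) in TXΔXicB6 and at 755, 817 and 619 in TXΔXicCast. Nanog stood at 129, 121 and 162 CPM against 110, 118 and 134.

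Xist, which lies on the X chromosome (103460366 to 103483254, minus strand, GRCm38), had the allele that each label predicts. In TXΔXicB6 the B6 allele had 2, 9 and 1 counts and the Cast allele 6368, 12695 and 6483. In TXΔXicCast the B6 allele had 4420, 2497 and 4094 counts and the Cast allele 1 in each library. Total Xist was 371, 540 and 737 CPM in TXΔXicB6 and 294, 338 and 392 CPM in TXΔXicCast. The groups overlapped, and the difference of −0.69 ± 0.30 (log2, SE) did not pass the test (adjusted p = 0.378, edgeR; exact permutation test of 3 against 3, two-sided p = 0.2, where the smallest possible p is 0.1). Without the filter on low counts it passed (−0.70, adjusted p = 8.4e-06). So it did in the 6 libraries alone with the replicate number as a block (−0.64, adjusted p = 0.0157). With the block in the fit of 30 libraries it did not pass (−0.65, adjusted p = 0.103, edgeR). Whether reads were counted by strand is not given in the sources used here, so that Xist and Tsix cannot be told apart where they overlap.

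In the deleted region 16 genes passed the filter, and 1 was called (1.26% over all genes), with 2 lower under the replicate block. It was Cdx4, a caudal-type homeobox gene, with 0.537, 0.672 and 0.569 CPM in TXΔXicB6 and 0.245, 0.113 and 0.173 CPM in TXΔXicCast (−1.65 ± 0.42, adjusted p = 0.043). Without replicate 3 of TXΔXicCast it had an adjusted p of 0.341. The non-coding neighbours of Xist did not pass the test. Ftx was at 14.6, 19.3 and 23.3 CPM against 15.1, 16.5 and 19.002, Jpx at 1.31, 1.46 and 2.18 against 1.28, 1.41 and 1.99, and Tsix at 3.86, 4.99 and 5.64 against 4.47, 4.28 and 3.43. Chic1, a protein-coding gene of the region, was at 10.3, 13.2 and 17.4 CPM against 9.75, 15.2 and 11.2, and the groups overlapped in all 4 of these genes.

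Between the lines 176 genes were higher in TXΔXicCast and 75 were lower, with edgeR's quasi-likelihood test on 30 deletion-line libraries and a Benjamini-Hochberg adjusted p of 0.05 over all tested genes. This is 0.885% higher, 0.377% lower and 1.26% called in all. With the replicate number as a block, 299 genes were higher and 148 lower (2.25% called), and all 251 genes were kept. In 248 of the 251 the values of the lines did not overlap. Over all genes the values did not overlap in 7.94% with TXΔXicCast higher and in 6.74% with it lower. Fitted on the 6 libraries alone without the block, edgeR called 0 genes in either direction, with 1820 of 17848 genes (10.2%) at an unadjusted p under 0.05. DESeq2 called 353 higher and 151 lower.

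Replicate 3 of TXΔXicCast stood apart from the other libraries in the genes called. Over genes with at least 100 counts its mean absolute log2 deviation from the other libraries of its line was 0.204, beside 0.192 and 0.158 for replicates 1 and 2 of that line and 0.171, 0.139 and 0.207 for the replicates of TXΔXicB6 in turn. It held the most extreme value of the 6 libraries in 200 of the 251 called genes, against 22 for replicate 1 and 29 for replicate 2 of that line. Of the 176 genes called higher, 147 were highest in it, and of the 75 called lower, 53 were lowest in it. Without this library 35 genes were higher and 14 lower (0.241% of 20342 genes tested), and 48 of them were among the 251. The counts fell without libraries of TXΔXicB6 too, to 48 higher and 23 lower without its replicate 2. Without its replicate 1 they were 88 and 43, and without its replicate 3 94 and 38. Leaving out replicate 1 or 2 of TXΔXicCast gave 209 and 112, or 259 and 61. Apart from Cdx4 in the deleted region the genes called fell into 3 groups. Runs of neighbouring autosomal genes held 82 calls, the X chromosome outside the deleted region 28, and the other autosomal genes 140. Replicate 3 of TXΔXicCast was the highest library in 23 of the 41 genes called higher in the runs. On the X chromosome it was so in 22 of 24, and in the other autosomal genes in 102 of 111. Of the genes called lower it was the lowest library in 28 of 41 in the runs, 1 of 4 on the X chromosome and 24 of 29 other autosomal genes. Without it 31 of 82, 6 of 28 and 11 of 140 calls were kept.

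**Figure D1:**
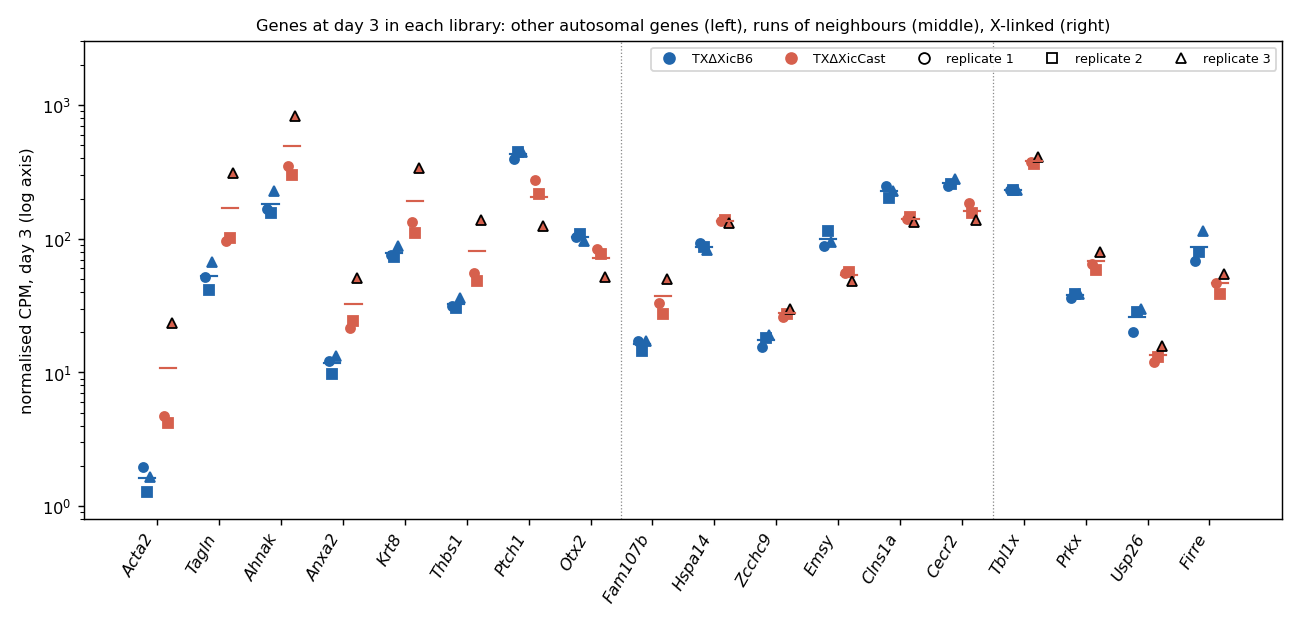
TMM-normalized CPM at day 3 on a log axis, 1 point per library and a bar at the mean of 3, with blue for TXΔXicB6, red for TXΔXicCast and a black-edged triangle for replicate 3 of TXΔXicCast. In the other autosomal genes on the left replicate 3 of TXΔXicCast lies away from its line, as for Acta2 at 23.4 CPM against 4.69 and 4.22, whereas Hspa14 and Clns1a in the runs of neighbours differ between the lines by about the same step in each library. Fam107b, also in a run, was at 50.4 CPM in that replicate against 33.4 and 27.3 CPM in the others of its line.

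The first group was found by reading the fold changes along each autosome. Genes with a mean count of at least 100 were taken in order, and stretches where the median of 11 consecutive genes was at least 0.3 (log2) in either direction were joined to runs of at least 10 genes. Stretches less than 2 Mb apart were joined. Both ends were then trimmed to adjacent genes that each differed by at least 0.3 in the direction of the run, so the ends were chosen on the fold changes. This rule was set after the values were seen, so that the runs are a description without a test of their own. It found 7 runs on chromosomes 2, 6, 7 and 13. In 6 of them 82 of 371 tested genes were called (22.1%), all in the direction of their run, which is 32.7% of all calls. The remaining run held histone genes and no call.

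Higher in TXΔXicCast were 4 of these runs. The first covers 1.69 Mb at the start of chromosome 2 (3114224 to 4802142, GRCm38, from Fam171a1 to Bend7), with no gene of this abundance before it. Of its 15 tested genes 8 were higher, with a median of 0.58 over the 12 genes with at least 100 counts. Hspa14, the gene of an Hsp70-family protein bound to ribosomes, stood at 93.5, 86.3 and 82.6 CPM in TXΔXicB6 and at 137, 138 and 132 CPM in TXΔXicCast (0.63 ± 0.08, adjusted p = 0.000177). The groups were far apart, and replicate 3 was no higher than the others of its line. Fam107b rose from 17.1, 14.4 and 17.3 to 33.4, 27.3 and 50.4 CPM (1.196 ± 0.17, adjusted p = 0.000463). Suv39h2, which encodes a histone H3 lysine methyltransferase and was picked out after its values were seen, was at 38.5, 44.4 and 41.5 CPM against 53.5, 58.6 and 62.7 (0.49 ± 0.10, adjusted p = 0.00827), and it did not pass without replicate 3 of TXΔXicCast (0.43, adjusted p = 0.104).

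The second run of chromosome 2 (76675281 to 84476775, Plekha3 to Tfpi, 7.80 Mb) had 12 of 30 genes called higher and a median of 0.59. Cwc22, a splicing factor gene, was at 88.3, 83.7 and 88.7 CPM in TXΔXicB6 and at 129, 131 and 131 CPM in TXΔXicCast (0.59 ± 0.11, adjusted p = 0.0046). Itprid2 was at 23.6, 22.8 and 22.1 against 40.5, 32.4 and 38.7 CPM (0.71 ± 0.10, adjusted p = 0.000463). Ttn, the gene of the muscle protein titin, was at 163, 173 and 139 against 249, 263 and 207 CPM and did not pass (0.59 ± 0.25, adjusted p = 0.364).

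On chromosome 7 the run from Nox4 to Tmem126b (87246096 to 90476001, 3.23 Mb) had 10 of 28 genes higher and a median of 0.60. Picalm, which encodes a clathrin assembly protein, was at 148, 165 and 185 CPM in TXΔXicB6 and 240, 269 and 299 CPM in TXΔXicCast (0.70 ± 0.16, adjusted p = 0.0262). This run holds Eed, a core subunit of Polycomb repressive complex PRC2, which was singled out after its values were seen. Eed was at 86.3, 81.1 and 95.3 CPM against 121, 143 and 146 CPM (0.64 ± 0.14, adjusted p = 0.0183), and the lines did not overlap. On chromosome 13 the run from Vcan to Homer1 (89655312 to 93405129, 3.75 Mb) had 11 of 22 genes higher and a median of 0.65. Zcchc9 was at 15.4, 18.2 and 19.2 CPM against 26.1, 27.4 and 29.8 CPM (0.66 ± 0.09, adjusted p = 0.000332). Rps23, a protein of the small ribosomal subunit, was at 781, 563 and 791 CPM against 1018, 1126 and 1112 (0.61 ± 0.16, adjusted p = 0.0465). It was the single cytosolic ribosomal protein gene called of 83, a share near the 1.26% over all genes. The median of the 83 genes was −0.04, and −0.02 without replicate 3 of TXΔXicCast. Picalm, Eed and Rps23 differed by 0.62, 0.59 and 0.59 without replicate 3 of TXΔXicCast and did not pass (adjusted p = 0.261, 0.167 and 0.278).

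Lower in TXΔXicCast were the last 29.4 Mb of chromosome 6 (120203073 to 149563329, B4galnt3 to Bicd1), with 29 of 251 genes called and a median of −0.36. No gene with at least 100 counts lies beyond it, and 119 of 131 such genes within it were below 0. Cecr2, a chromatin remodelling subunit, was at 250, 258 and 280 CPM in TXΔXicB6 and at 186, 157 and 138 CPM in TXΔXicCast (−0.71 ± 0.10, adjusted p = 0.000472). Fkbp4, a cochaperone of Hsp90, was at 1028, 897 and 1036 against 707, 721 and 597 CPM (−0.55 ± 0.11, adjusted p = 0.0105). Nanog and Gapdh lie in this run. Gapdh, a glycolytic enzyme often used to scale expression and named here after its values were seen, was at 4458, 4323 and 3671 CPM against 3449, 3246 and 2687 CPM (−0.41 ± 0.10, adjusted p = 0.0348). Nanog did not pass the test of its total level (−0.19 ± 0.13, adjusted p = 0.727). Tuba3b was at 8.64, 7.60 and 5.22 CPM against 3.65, 4.11 and 0.894 (−1.37 ± 0.35, adjusted p = 0.0485). This was the largest fall among called genes without overlap that averaged at least 100 counts (symbols of Gm and Rik form left out). Reads of Tuba3b may be shared with near-identical tubulin copies. Fkbp4, Gapdh and Tuba3b differed by −0.47, −0.31 and −0.91 without replicate 3 of TXΔXicCast and did not pass (adjusted p = 0.167, 0.476 and 0.476).

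The shortest run of the 6 lies on chromosome 7 from Usp35 to Thap12 (97309380 to 98718062, 1.41 Mb), with 12 of 25 genes lower and a median of −0.65. Myo7a, an unconventional myosin of hair cells, had the smallest p of all genes, at 22.5, 20.6 and 19.3 CPM in TXΔXicB6 and 11.5, 10.0 and 7.79 CPM in TXΔXicCast (−1.10 ± 0.12, adjusted p = 2.58e-05). Emsy, a chromatin protein that binds BRCA2, was at 87.9, 115 and 94.2 against 55.4, 56.7 and 48.4 CPM (−0.89 ± 0.11, adjusted p = 0.000177). Ints4, a subunit of the Integrator complex, was at 129, 140 and 115 against 84.5, 82.7 and 76.6 CPM (−0.66 ± 0.09, adjusted p = 0.000332). Clns1a, a cofactor of arginine methylation, was at 248, 202 and 228 against 142, 146 and 133 CPM (−0.69 ± 0.10, adjusted p = 0.000522), and Alg8, a glycosyltransferase gene, at 31.0, 32.9 and 35.04 against 20.98, 17.2 and 20.4 CPM (−0.75 ± 0.14, adjusted p = 0.00349). The lines did not overlap in any of these 5 genes, and 8 of the 10 smallest p of the whole comparison belonged to the 6 runs.

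**Figure D2:**
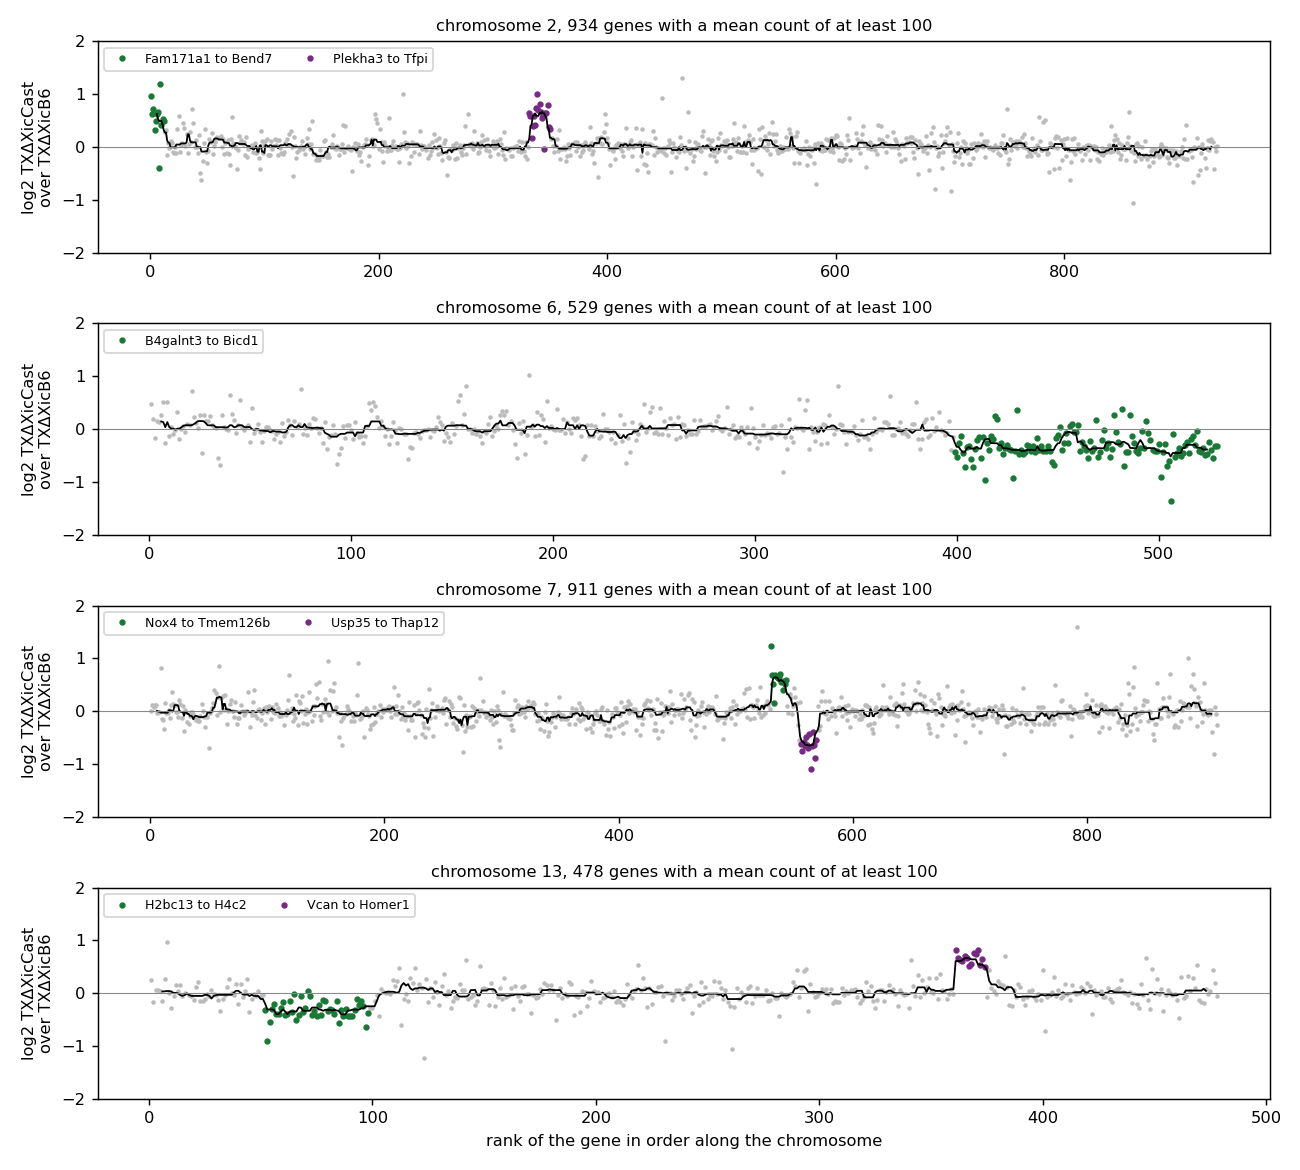
Fitted log2 fold change, TXΔXicCast over TXΔXicB6, of genes with a mean count of at least 100 against their rank along chromosomes 2, 6, 7 and 13, with the genes of the runs in colour and the median of 11 consecutive genes as a black line. The axis stops at 2 in both directions and leaves out 1 gene outside the runs. The black line steps to medians of 0.58, 0.59, 0.60 and 0.65 in 4 runs to −0.36 and −0.65 in 2 runs and to −0.33 in the histone run of chromosome 13, and lies near 0 elsewhere.

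Allele-specific counts, a part of the same reads, were tested for a difference between the lines in the balance of B6 and Cast. Among 10942 genes with at least 20 allele-specific counts in each library 521 were called (4.76%), and among autosomal genes 182 of 10545 (1.73%). In the 6 runs 124 of 190 genes were called (65.3%), against 56 of 10330 autosomal genes outside all runs (0.542%). In the remaining autosomal genes the summed B6 share was between 50.9 and 51.0% in each of the 6 libraries.

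Within a run the genes called shifted to the same side, and in each run the allele-specific level of a single allele differed. In the run from Fam171a1 to Bend7 counts of the Cast allele, scaled to the autosomal allele-specific total of the library, were 2.08 times as high in TXΔXicCast and those of the B6 allele 1.09 times. The run from Vcan to Homer1 likewise had 2.03 times the Cast and 1.04 times the B6 counts. From Plekha3 to Tfpi the B6 allele was at 2.07 times and the Cast allele at 1.07 times, and from Nox4 to Tmem126b they were at 2.06 and 1.02 times. From Usp35 to Thap12 the B6 allele was at 0.498 times and the Cast allele at 0.957 times. On chromosome 6 the Cast allele was at 0.655 times and the B6 allele at 0.990 times.

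These shares were compared with TX1072 at day 3, the line from which both derive. From Fam171a1 to Bend7 the B6 share was 51.0% ± 0.770 (SD, n = 3) in TXΔXicB6, 35.3% ± 0.455 in TXΔXicCast and 51.2% ± 2.03 in TX1072. From Plekha3 to Tfpi it was 45.0% ± 0.899, 61.3% ± 0.737 and 46.9% ± 0.321, and from Nox4 to Tmem126b 52.8% ± 1.27, 69.4% ± 1.17 and 53.5% ± 0.866. From Vcan to Homer1 it was 48.5% ± 0.113, 32.6% ± 0.521 and 52.1% ± 2.55. In these 4 runs TXΔXicCast was the line away from TX1072. From Usp35 to Thap12 the shares were 66.8% ± 0.869, 51.2% ± 0.313 and 51.2% ± 0.190, and on chromosome 6 43.5% ± 1.48, 53.7% ± 0.505 and 53.7% ± 0.184, so that here TXΔXicB6 was the line away from TX1072. Libraries of TX1072 were made with another kit, and copy number was not measured in these data and its part was not tested.

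Single genes of the runs showed how far this held. Ints4 had a B6 share of 68.8, 70.6 and 66.1% in TXΔXicB6 and of 52.3, 52.0 and 50.5% in TXΔXicCast. Nanog had 45.8, 48.4 and 44.3% against 55.9, 59.3 and 60.8% (0.70 ± 0.09 on the log2 scale of B6 over Cast, adjusted p = 2.97e-07), although its total level did not pass the test. Eed had 51.2, 54.0 and 46.8% against 68.9, 69.0 and 67.4%. Myo7a was made almost wholly from the B6 allele in both lines, with 91.1, 88.8 and 88.8% against 86.0, 88.3 and 93.4%, and its balance did not pass (adjusted p = 0.914). Gapdh was at 91.8, 90.2 and 86.4% against 94.8, 92.7 and 93.1% B6.

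**Figure D3:**
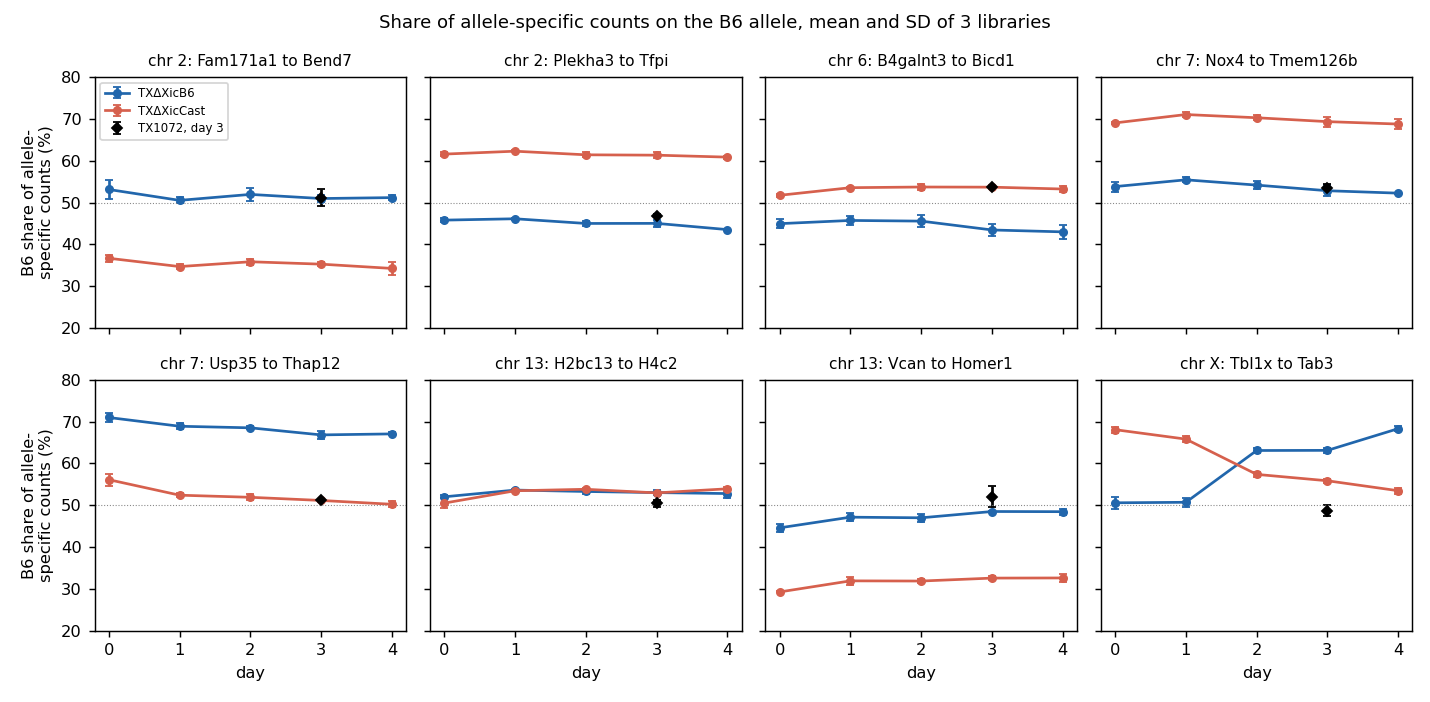
Share of allele-specific counts on the B6 allele in %, mean and SD of 3 libraries, by day in TXΔXicB6 (blue) and TXΔXicCast (red), with TX1072 at day 3 in black, for the 7 autosomal runs and for the X-linked stretch from Tbl1x to Tab3. In 6 autosomal runs the lines lie apart on each day, with 45.0 and 51.7% at day 0 and 43.5 and 53.7% at day 3 on chromosome 6, in the histone run they lie together at 53.04 and 52.97% at day 3, and in the X-linked stretch TXΔXicCast starts above 60% at day 0 and falls while TXΔXicB6 rises.

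The differences of the 6 runs were also found in the libraries of the other days. Called in the same direction were 41 of the 82 genes at day 1, when 80 genes were called in all (0.402%). At day 2 this held for 42 genes, beside 74 calls in all (0.372%), and at day 4 for 73 genes, beside 1165 calls in all (5.86%). The median of the 41 genes called higher was 0.66, 0.63, 0.67 and 0.68 from day 1 to day 4 in turn. That of the 41 genes called lower was −0.30, −0.39, −0.54 and −0.57.

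The seventh run is the histone gene cluster of chromosome 13 (21715763 to 23757409, H2bc13 to H4c2), with a median of −0.33. None of its 67 tested genes was called by edgeR, and both alleles were at a similar level in it, at 0.814 times for B6 and 0.817 times for Cast. Over all replication-dependent histone genes 0 of 61 were called and 59 were below 0, beside 1.26% called and 10403 of 19885 below 0 over all genes. The median of the run moved between −0.52 and −0.10 when single libraries were left out. H4c4, the most abundant, was at 1012, 787 and 566 CPM in TXΔXicB6 and 748, 577 and 560 CPM in TXΔXicCast, and the groups overlapped. Counts of single histone genes may be shared with near-identical copies.

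On the X chromosome 24 genes were higher and 4 lower of 740 tested outside the deleted region (3.78%, beside 1.26% over all genes), with 41 and 7 under the replicate block and 4 and 2 without replicate 3 of TXΔXicCast. The chromosome had a median of 0.10, and the autosomes had medians between −0.09 and 0.06. The share of all counts on X-linked genes was 4.67% ± 0.126 (SD, n = 3) in TXΔXicB6 and 5.12% ± 0.159 in TXΔXicCast (exact permutation test, two-sided p = 0.1, the smallest possible). The Xi supplied 37.0, 37.0 and 35.6% of X-linked allele-specific counts in TXΔXicB6 and 39.3, 39.5 and 39.2% in TXΔXicCast. The groups did not overlap, with a log2 Xi:Xa ratio of −0.80 ± 0.05 against −0.62 ± 0.01 (SD, n = 3, exact permutation test, two-sided p = 0.1, the smallest possible). Taken within pairs of the same replicate number, the difference had a two-sided p of 0.25 (exact sign permutation test, again the smallest possible). The size of this difference, 0.175, depended on the measure: it was 0.0639 after division by the autosomal ratio of the alleles and 0.363 for the median over genes. Allelic balance was called in 332 of 366 X-linked genes (90.7%), where the lines silence opposite chromosomes by construction.

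X-linked genes higher in TXΔXicCast were spread over the chromosome except for a cluster. From Tbl1x to Tab3 (X, 77511013 to 85634469, 8.12 Mb), a stretch singled out after the values were seen, 7 of 13 tested genes were higher, with a median of 0.73 against 0.10 in the other X-linked genes. Tbl1x, a subunit of the NCoR corepressor complex, was at 231, 232 and 231 CPM in TXΔXicB6 and at 375, 366 and 410 CPM in TXΔXicCast (0.73 ± 0.10, adjusted p = 0.000332). Prkx, a cAMP-dependent kinase gene, was at 36.1, 38.6 and 38.9 against 64.6, 58.9 and 79.6 CPM (0.84 ± 0.12, adjusted p = 0.000332). Mageb16 was at 7.38, 7.78 and 9.91 against 13.9, 16.9 and 17.8 CPM (0.96 ± 0.17, adjusted p = 0.00229), and Tmem47 at 85.5, 101 and 118 against 143, 185 and 211 CPM (0.82 ± 0.18, adjusted p = 0.0137). The lines did not overlap in these 4 genes. Tmem47 differed by 0.69 without replicate 3 of TXΔXicCast and did not pass (adjusted p = 0.189), while the other 3 passed.

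The allelic share of this stretch differed before X inactivation as well. Over 5 genes with enough allele-specific counts the B6 share at day 0 was 68.3, 68.7 and 67.3% in TXΔXicCast and 49.0, 51.5 and 51.3% in TXΔXicB6, beside 49.9, 49.9 and 49.2% and 50.4, 50.2 and 50.5% in the rest of the X chromosome. At day 3 it was 56.3, 55.3 and 56.0% in TXΔXicCast, where the rest of the chromosome was at 39.0, 39.2 and 38.9%. In TXΔXicB6 it was 63.7, 62.6 and 63.1%, beside 63.0, 63.0 and 64.4% in the rest. TX1072 at day 3 had 50.0, 47.3 and 48.8%. The median fold change of the stretch was 0.55, 0.54 and 0.83 on days 1, 2 and 4.

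Elsewhere on the X chromosome Efnb1, an ephrin ligand gene, was at 11.6, 11.1 and 9.39 CPM against 20.2, 15.9 and 26.0 CPM (0.95 ± 0.21, adjusted p = 0.0148), and Flna, the actin crosslinker filamin A, at 708, 728 and 766 against 966, 942 and 1291 CPM (0.54 ± 0.11, adjusted p = 0.0113). Ldoc1 was at 13.4, 11.6 and 8.30 against 19.018, 18.1 and 20.9 CPM (0.80 ± 0.20, adjusted p = 0.0457). Without replicate 3 of TXΔXicCast these 3 genes had adjusted p of 0.244, 0.245 and 0.321. The gene 3830417A13Rik was at 9.77, 9.24 and 10.8 against 18.8, 20.6 and 44.0 CPM (1.495 ± 0.24, adjusted p = 0.00108, edgeR). It differed by 0.99 without that library and still passed (adjusted p = 0.0187), as it did with any other single library left out. Lower in TXΔXicCast were 4 genes. Firre, a long non-coding RNA gene, was at 68.1, 79.4 and 115 CPM against 46.3, 38.7 and 54.3 CPM (−0.91 ± 0.20, adjusted p = 0.0152), with 91.7, 92.6 and 92.5% of its allele-specific counts on B6 in TXΔXicB6 and 50.4, 53.04 and 48.9% in TXΔXicCast. Usp26, a ubiquitin protease gene of the germline, was at 19.9, 28.5 and 29.7 against 11.9, 13.0 and 15.7 CPM (−0.94 ± 0.16, adjusted p = 0.00201). The others were 4933407K13Rik (−0.83 ± 0.20, adjusted p = 0.0308) and the connexin gene Gjb1, below 3 CPM in every library (−2.51 ± 0.53, adjusted p = 0.0115). These others had adjusted p of 0.0891 and 0.190 without that library, while Firre and Usp26 passed. With each single library left out in turn 5 X-linked calls were kept, Usp26 among them but not Firre.

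None of the 8 genes that the study followed in these lines, Klhl13, Pir, Hprt, Renbp, Atrx, Cul4b, Prdx4 and Rlim, was called by edgeR in its total level at day 3, and their differences ran from −0.25 to 0.41. Klhl13, which encodes an adaptor of a ubiquitin ligase, was at 1578, 1724 and 1664 CPM in TXΔXicB6 and 1720, 1768 and 1742 CPM in TXΔXicCast. Cul4b, a ubiquitin ligase scaffold, had the largest difference, with 970, 956 and 1019 against 1193, 1207 and 1505 CPM (0.41 ± 0.14, adjusted p = 0.186). Of 10 known escape genes, which stay partly active on the Xi, 0 were called by edgeR. Their median was 0.03, and 0.04 without replicate 3 of TXΔXicCast. These counts, 0 of 8 and 0 of 10, stand beside 1.26% called over all genes. At an unadjusted p under 0.05 stood 152 of the 740 X-linked genes, beside 10.5% of all genes.

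The other autosomal genes held 140 calls in 18609 tested (0.752%). Of 17 tested genes of the mesenchymal and actin-regulated list 5 were higher (Acta2, Tagln, Cnn1, Tpm1 and the X-linked Flna) and 0 lower, beside 0.885% higher and 0.377% lower over all genes, with a median of 0.54 against −0.01 over all tested genes. Above 0 were 11 of the 17 and below 0 were 6, namely Snai2 (−0.73), Cdh2 (−0.28), Twist1 (−0.19), Thy1 (−0.18), Zeb1 (−0.11) and Snai1 (−0.10), none of which passed. Over all genes 9456 of 19885 were above 0 and 10403 below. Without replicate 3 of TXΔXicCast 0 of the 17 were called by edgeR and the median was 0.38, and with the block 8 were higher. Acta2, smooth muscle actin, was at 1.96, 1.29 and 1.66 CPM in TXΔXicB6 and 4.69, 4.22 and 23.4 CPM in TXΔXicCast (2.76 ± 0.46, adjusted p = 0.00174). Tagln, the actin-binding protein transgelin, was at 51.4, 41.2 and 66.5 against 96.9, 101 and 309 CPM (1.68 ± 0.30, adjusted p = 0.00349). Tpm1, a tropomyosin, was at 327, 268 and 372 against 473, 426 and 879 CPM (0.88 ± 0.18, adjusted p = 0.00872), and differed by 0.48 without replicate 3 of TXΔXicCast (adjusted p = 0.212). All 3 libraries of TXΔXicCast were above those of TXΔXicB6 in these genes, with replicate 3 far above the other 2.

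Anxa2, an annexin, a protein that binds membranes in the presence of calcium, was at 12.1, 9.81 and 13.2 CPM in TXΔXicB6 and at 21.5, 24.2 and 51.2 CPM in TXΔXicCast (1.48 ± 0.27, adjusted p = 0.00373). The annexin genes Anxa1 (1.53 ± 0.34, adjusted p = 0.0183) and Anxa3 (1.44 ± 0.34, adjusted p = 0.0261) were higher too, and so was Ahnak, a giant scaffold protein that binds annexin A2, with 167, 155 and 227 against 350, 300 and 824 CPM (1.42 ± 0.27, adjusted p = 0.00492). The Wnt ligand genes Wnt4 (3.38, 3.46 and 3.18 against 6.95, 5.80 and 12.6 CPM, 1.35 ± 0.23, adjusted p = 0.00229) and Wnt6 (3.60, 3.72 and 2.56 against 7.90, 5.57 and 17.0 CPM, 1.62 ± 0.36, adjusted p = 0.0197) were higher as well. Frk, a Src-family kinase gene, was at 2.36, 1.92 and 2.80 against 6.18, 5.63 and 10.7 CPM (1.70 ± 0.30, adjusted p = 0.00249). Its fitted difference was 1.22, 1.22 and 1.95 on days 1, 2 and 4, of which that of day 4 alone passed the test (adjusted p = 0.469, 0.157 and 0.000193, edgeR). Cryab, a small heat shock protein (1.68 ± 0.36, adjusted p = 0.0153), and Tgfb1i1, a focal adhesion protein (1.58 ± 0.39, adjusted p = 0.0357), complete together with Thbs1 the 12 largest increases among called genes without overlap that averaged at least 100 counts (symbols of Gm and Rik form left out). Some called genes with fewer counts differed by more than most of these, such as Actc1, a cardiac actin named after its value was seen (2.20, and 1.67 with an adjusted p of 0.0516 without replicate 3 of TXΔXicCast). Without replicate 3 of TXΔXicCast the adjusted p of the 12 genes lay above 0.05, the lowest being 0.0507 for Acta2 and 0.0522 for Frk. Their differences were smaller without it. Acta2 then differed by 1.47, Tagln by 0.90, Thbs1 by 0.66, Ahnak by 0.83, Anxa1 by 0.74, Anxa2 by 0.97 and Anxa3 by 0.61. Wnt6 differed by 1.03, Cryab by 0.97 and Tgfb1i1 by 0.93, whereas Frk and Wnt4 (0.93) moved by less than 1.5 times.

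Among the decreases was Ptch1, a receptor and target of Hedgehog signalling, at 395, 447 and 446 CPM in TXΔXicB6 and 276, 216 and 125 CPM in TXΔXicCast (−1.06 ± 0.22, adjusted p = 0.0108). Otx2, a transcription factor of the formative epiblast, was at 104, 108 and 95.6 against 84.6, 77.6 and 52.0 CPM (−0.52 ± 0.13, adjusted p = 0.0458). Ntn1, the guidance cue netrin, was at 14.8, 15.5 and 15.1 against 10.49, 9.28 and 7.41 CPM (−0.74 ± 0.19, adjusted p = 0.0426). Naaa, a lysosomal amidase gene (−0.997 ± 0.23, adjusted p = 0.0261), Car14, a carbonic anhydrase (−0.90 ± 0.22, adjusted p = 0.042), and Pirt, a regulator of ion channels (−0.90 ± 0.17, adjusted p = 0.00514), were lower too. In each of these 6 genes the lines did not overlap and replicate 3 of TXΔXicCast was the lowest library. Without it they had adjusted p between 0.101 for Pirt and 0.557 for Otx2, whose difference was then −0.34. Mfap5, a microfibril gene inside the run of chromosome 6, was at 4.59, 3.42 and 4.36 against 2.21, 2.70 and 1.50 CPM (−0.97 ± 0.19, adjusted p = 0.00708), and at an adjusted p of 0.143 without that library.

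Outside the runs and the X chromosome 12 genes passed the test without replicate 3 of TXΔXicCast, 11 of which were also called with it, and those named here were named after their values were seen. Klf6, a Krüppel-like transcription factor gene, differed by 0.98 with the library and by 0.64 without it (adjusted p = 0.00613). Synpo2l, a gene of striated muscle, differed by 1.93 and 1.50 (adjusted p = 0.0407). Prph, an intermediate filament of neurons, differed by 0.99 and 1.04 (adjusted p = 0.0439). Nars2, which lies beside the run of chromosome 7, differed by −0.55 and −0.59 (adjusted p = 0.0474). Also among them were Nlrp9b, Loxl4, Cyp2b23, Serpina3m, Mep1b, Gm11427 and AI662270. With each single library left out in turn 6 of the other autosomal calls were kept. Klf6 and Synpo2l were among these 6, but Prph, Nars2 and Serpina3m were not.

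Lists of genes for the stages and lineages that differentiating mESCs pass through held few calls, and their counts stand beside 0.885% higher and 0.377% lower over all genes, with 9456 of 19885 genes above 0 and 10403 below. In the formative and primed epiblast list Otx2 was the 1 lower gene of 10 and all 10 were below 0 (median −0.31, and −0.17 without replicate 3 of TXΔXicCast), with 2 lower under the replicate block and 0 called without that library. Naive pluripotency genes had 0 of 14 called, 1 lower under the block, and a median of −0.29, which was −0.17 without that library, with Fgf4 at 167, 153 and 128 against 135, 137 and 68.0 CPM. Core pluripotency genes had 0 of 8 called, 2 lower under the block, and all 8 below 0 (median −0.18, and −0.08 without that library). Sox2 was at 152, 154 and 147 CPM in TXΔXicB6 and 129, 94.8 and 65.5 CPM in TXΔXicCast. In the primitive streak and early mesoderm list 0 of 12 were called (median 0.45, and 0.13 without that library), in endoderm 0 of 13 (median 0.19) and in neural genes 0 of 11 (median −0.05, and 0.04 without that library). Eomes was at 19.9, 16.8 and 16.8 against 18.6, 15.9 and 28.2 CPM. Extracellular matrix genes had 1 of 13 higher, Thbs1, a matrix glycoprotein, at 31.5, 30.3 and 36.4 against 55.3, 48.2 and 138 CPM (1.31 ± 0.25, adjusted p = 0.0064), with 3 higher under the block, and their median was 0.31. Thbs1 was not called without replicate 3 of TXΔXicCast (0.66, adjusted p = 0.188).

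In the trophoblast list 1 of 9 was higher, beside 0.885% over all genes, and all 9 were above 0, as were 9456 of all 19885 genes (median 0.58, and 0.32 without replicate 3 of TXΔXicCast). The gene called was Krt8, a keratin of simple epithelia, at 76.3, 72.5 and 88.1 CPM in TXΔXicB6 and 133, 110 and 338 CPM in TXΔXicCast (1.30 ± 0.28, adjusted p = 0.0142). Krt8 differed by 0.62 without that library and did not pass (adjusted p = 0.497). The summed level of the list was 251, 230 and 277 CPM against 371, 290 and 738 CPM, most of it from Krt8 and Krt18. Of its defining markers Tpbpa was at 0 in all 6 libraries, Elf5 was below 0.2 CPM and Cdx2 below 1.5 CPM in each. Other members were expressed in both lines, with Tfap2c at 31.9, 29.9 and 38.6 against 42.8, 28.6 and 41.6 CPM, Ascl2 at 20.3, 18.9 and 11.2 against 27.4, 19.97 and 20.2 CPM, and Gata3 at 9.29, 8.22 and 6.12 against 13.2, 9.06 and 13.1 CPM. With the replicate block 3 members were higher. Col1a1, a marker of fibroblasts, was at 1.53, 1.21 and 1.47 against 1.53, 1.80 and 3.78 CPM, and the summed fibroblast markers were at 23.1, 21.1 and 19.3 against 22.8, 20.7 and 19.6 CPM. In bulk RNA more cells of a type and more RNA per cell cannot be told apart.

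Beside 1.26% called over all genes, no member was called by edgeR in the lists of DNA methylation (0 of 8, median −0.20), ERK targets (0 of 14, −0.07), Lif-Stat3 (0 of 7, 0.03), Nodal (0 of 10, −0.15), BMP (0 of 10, 0.10), Wnt targets (0 of 10, 0.22), germline (0 of 12, −0.10), imprinted (0 of 29, 0.14), p53 targets (0 of 12, 0.24), glycolysis and hypoxia (0 of 12, −0.10), cholesterol synthesis (0 of 11, −0.02), mitochondrially encoded (0 of 10, −0.05) and Hox genes (0 of 32, 0.19). Under the replicate block 1 Wnt target was lower and 1 imprinted gene and 1 p53 target were higher. Without replicate 3 of TXΔXicCast the medians of the DNA methylation, Nodal, BMP, imprinted, p53 and Hox lists were −0.10, −0.10, 0.18, 0.06, 0.16 and −0.01. That of the germline list was then 0.01 and that of the mitochondrial genes −0.10. Those of the Lif-Stat3 and cholesterol synthesis lists were 0.014 and −0.0038. Two-cell-like genes, which mark a rare state of mESC cultures, had 0 of 9 called and all 9 above 0, as were 9456 of all 19885 genes (median 0.79). Zscan4d, their most abundant member, was at 1.48, 1.90 and 0.711 CPM against 2.42, 2.70 and 2.60 CPM, and its reads may be shared with its near-identical copies. At an unadjusted p under 0.05 stood 2079 of all 19885 genes (10.5%).

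Genes that rise or fall with time were taken from TX1072, whose libraries do not enter the comparison of the deletion lines. Of 3004 tested genes that rose there from day 3 to day 4, 98 were higher and 5 lower in TXΔXicCast at day 3, with a median of 0.13, beside 0.885% higher and 0.377% lower over all genes. Of 2219 genes that fell, 8 were higher and 20 lower, with a median of −0.09. Without replicate 3 of TXΔXicCast the rising genes had 9 higher and 1 lower and a median of 0.08, and the falling genes 5 higher and 2 lower and a median of −0.02. The median deviation of single libraries from the mean of the 6 was 0.07, −0.06 and 0.14 for the rising genes in TXΔXicCast and −0.03, −0.06 and −0.08 in TXΔXicB6. For the falling genes it was 0.01, 0.04 and −0.16 in TXΔXicCast and 0.05, 0.06 and 0.01 in TXΔXicB6, so that replicate 3 of TXΔXicCast was the most extreme library for both lists.

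The 3 groups of calls differed in what the same lines gave on the other days. Of the 140 calls in other autosomal genes 1, 6 and 101 were called in the same direction on days 1, 2 and 4, and of the 28 X-linked calls 5, 4 and 23. The median of the 111 other autosomal genes called higher was 0.09, 0.24, 0.92 and 0.78 from day 1 to day 4 in turn, and that of the 29 called lower was −0.20, −0.45, −0.90 and −0.75. The 24 X-linked genes called higher had medians of 0.30, 0.33, 0.73 and 0.84. Day 4 was compared without its own replicate 3 of TXΔXicCast too, which left 326 calls in all (1.60%). Of the calls of day 3, 62 of 82 in the runs, 21 of 28 on the X chromosome and 50 of 140 in the other autosomal genes were then called in the same direction. At day 0 3929 genes were called (19.8%), but RNA of TXΔXicCast was degraded at that day and its fragmentation was changed, so its levels were not used further for the genes called at day 3. The day 0 libraries stayed in the fit behind the calls of day 3. Without day 0 that fit gave 204 genes higher and 83 lower at day 3.

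**Figure D4:**
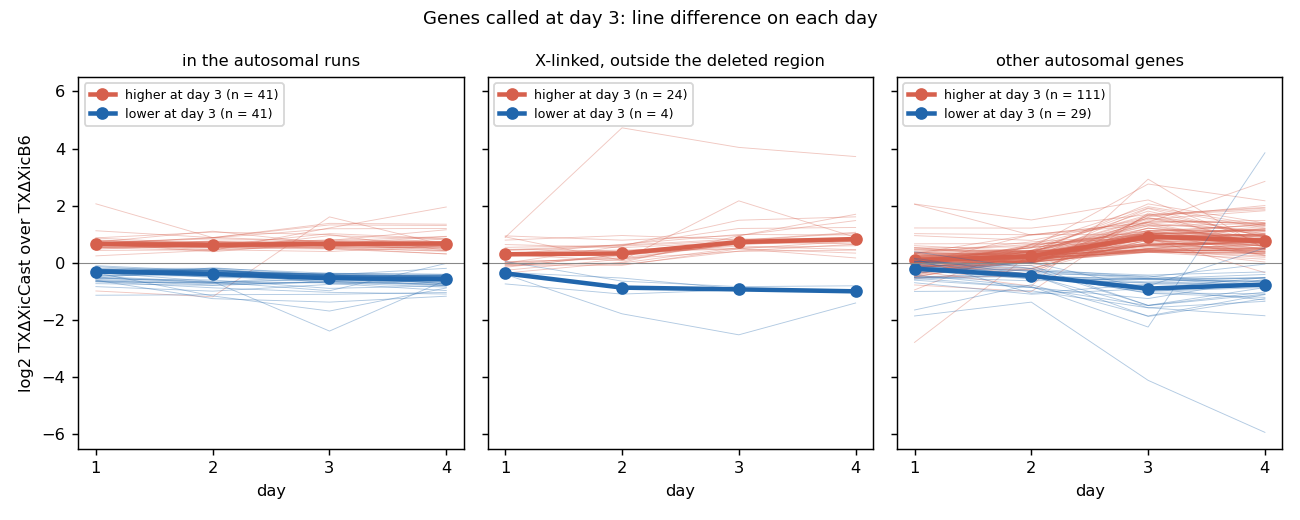
Fitted log2 fold change, TXΔXicCast over TXΔXicB6, at days 1 to 4 for the genes called at day 3, 1 thin line per gene and the median as a thick line, with genes higher at day 3 in red and lower in blue. Genes higher in the runs have a median of 0.66 at day 1 and 0.67 at day 3, and genes lower in them −0.30 and −0.54, whereas other autosomal genes called higher go from 0.09 at day 1 to 0.92 at day 3.

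A difference particular to day 3 needs the test of the difference between days. Between day 3 and day 1 the line difference changed in 4 genes by edgeR (0.0201%), in 7 with the replicate block and in 33 by DESeq2, with 1108 at an unadjusted p under 0.05 (5.57%). Between day 3 and day 4 it changed in 0 genes by edgeR and 2 by DESeq2, with 660 at an unadjusted p under 0.05 (3.32%). The change of the other autosomal genes from day 1 to day 3 is therefore a description of their medians, since day 3 chose them, and of the 12 increases named above, from genes averaging at least 100 counts, none passed this test, whereas Loxl4 (1.74 at day 3), with fewer counts, did.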

How the data were processed

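Counts per gene were deposited as whole numbers, with separate tables of B6 and Cast counts. According to the study, the authors aligned reads with STAR 2.5.2b to mm10 (GRCm38) with variants masked and counted uniquely aligned, exon-overlapping reads with featureCounts. Libraries of the deletion lines were made from rRNA-depleted total RNA with a KAPA kit.

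Counts of 30 deletion-line libraries were tested here with edgeR 4.0.16 in R 4.3.3 (filterByExpr, TMM, glmQLFit, glmQLFTest, 1 term per line and day), contrast TXΔXicCast minus TXΔXicB6 at day 3, with a Benjamini-Hochberg adjusted p of 0.05. SE is the log2 fold change over the root of F. The 30 libraries share 1 estimate of spread. Allelic balance was fitted with a term per library, allele and allele by line on genes with at least 20 allele-specific counts in each of the 6 libraries. CPM are the counts per 1e6 of the TMM-scaled total. Of the table's genes 51444 matched GENCODE by symbol, 404 by a RefSeq synonym and 168 none.

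According to the study's reporting summary each replicate was differentiated on a day of its own, so the numbers were taken to pair the libraries. Deviations of same-numbered libraries from the line means correlated at 0.29, 0.0257 and 0.28, those of other numbers between −0.343 and 0.133.

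On simulated data of the day 3 design (19645 genes) 47.8% of log2 changes of 0.6, 92.5% of 1 and 100% of 2 were recovered, with 7 false among 167 calls. The simulated counts followed the fitted trend of spread, without extra spread of single genes, a replicate effect or a library that stands apart. Changes were placed only in genes above a count limit, so these shares do not give the error rate of the real comparison.

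Members, lists and the rule for named genes were chosen with earlier results of these data known. The rule picks the 12 largest increases and decreases without overlap and averaging 100 or more counts (Gm and Rik symbols left out). It also picks the 10 smallest p, list members called (at most 4, or the 2 most abundant) and genes of the deleted region. Further picks are the 6 largest X-linked changes in each direction, the 6 smallest p of allelic balance and the genes followed in the study. Some of the genes picked, such as Msn, Fndc3c1, Map7d3 and Tceal8, are not described above. Nespas was not matched. Alternatives were no filter, a mean count of at least 100, DESeq2 1.42.0, other size factors, the replicate block, other sets of libraries and each library left out.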

Additional observations from a re-analysis of the deposited data

Results flagged for a closer look

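The line difference changed between day 1 and day 3 beyond the test of the difference itself in 4 genes (edgeR, Benjamini-Hochberg adjusted over 19885 genes). Loxl4, a lysyl oxidase gene, changed by 2.51 on the log2 scale (adjusted p = 0.00567), from a mean of 4.53 CPM in TXΔXicB6 and 2.66 in TXΔXicCast at day 1 to 0.916 and 2.82 at day 3. She, an adaptor protein gene, changed by 1.74 (adjusted p = 0.00213), from 17.0 and 5.88 CPM at day 1 to 4.18 and 4.73 at day 3. Prlr, the prolactin receptor, changed by −2.71 (adjusted p = 0.0387), from 0.173 and 0.745 CPM at day 1 to 5.73 and 3.75 at day 3. Kynu, the kynureninase gene, changed by −3.16 (adjusted p = 0.00714), from 0.0582 and 0.589 CPM to 3.49 and 3.75. The day 1 values of Prlr and Kynu lie near the floor, so that the size of their changes rests on few counts. Of the 4 genes Loxl4 alone was called at day 3, while She, Prlr and Kynu were not, with differences of 0.21, −0.62 and 0.10.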

How the results depend on the processing

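Without single libraries counts of calls ranged from 35 to 259 higher, from 14 to 112 lower and from 6 to 28 on the X chromosome, and all 251 genes kept their sign in each of these 6 fits. Without the filter 351 were higher, 224 lower and 61 X-linked, and in that fit Xist passed (−0.70). With the replicate block there were 299, 148 and 48, with DESeq2 353, 151 and 47, in the 6 libraries alone 0, 0 and 0, and in the 6 libraries with the block 303, 171 and 55, where Xist passed (−0.64). In the 24 libraries without day 0 there were 204, 83 and 32. Leaving out single libraries gave Xist −0.90 to −0.42. The median of the X chromosome was 0.11 with at least 100 counts, 0.11 with DESeq2's size factors and 0.10 with autosomal TMM factors, and 0.0885 to 0.120 without single libraries. That of chromosome 6 was −0.0581 with at least 100 counts and −0.103 to −0.0707 without single libraries, of chromosome 8 0.0302 to 0.0812 and of chromosome 11 −0.0730 to −0.0189. Autosomal calls of allelic balance ranged from 142 to 234, X-linked ones from 315 to 332 and the difference in log2 Xi:Xa from 0.15 to 0.19 without single libraries, beside 0.0639 divided by the autosomal ratio and 0.363 as the median over genes. The interaction with day 1 had 7 calls with the block, 33 with DESeq2 and 1814 against day 0, and that with day 4 had 2 with DESeq2. Day 4 without replicate 3 of TXΔXicCast gave 326 calls, and the medians of the TX1072 lists without that of day 3 were 0.08 and −0.02. The medians of the runs without single libraries were 0.52 to 0.63 (Fam171a1 to Bend7), 0.55 to 0.64 (Plekha3 to Tfpi), −0.38 to −0.32 (chromosome 6), 0.58 to 0.65 (Nox4 to Tmem126b), −0.69 to −0.62 (Usp35 to Thap12), −0.52 to −0.10 (histones) and 0.60 to 0.70 (Vcan to Homer1).

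On simulated data without a library that stands apart 47.8% of log2 changes of 0.6 were recovered, and a p that misses the threshold does not show equal levels. The estimate of spread rests on all 5 days.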
